A study of Mus with 6 samples.

Results

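Keratins are the intermediate filament proteins of epithelial cells, and the keratins that mark luminal and basal mammary epithelium were followed here in 4T1, a mouse mammary carcinoma cell line. A keratin filament is built from pairs of a type I and a type II keratin. In the mammary gland, Krt8 (type II) and Krt18 (type I) form the filament of the luminal, milk-duct lining cells, which also use Krt7 (type II) and Krt19 (type I), while Krt5 (type II) and Krt14 (type I) form the filament of the basal, myoepithelial layer. Mammary carcinomas can carry keratins of both layers.

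The members were taken by Ensembl ID from a list of 6 keratins, and 5 of them were analysed among 35304 IDs: Krt7, Krt8, Krt18, Krt19 and Krt14. Krt5 was not analysed here, so the basal layer is represented by Krt14 alone and the basal pair Krt5 and Krt14 could not be compared. All 5 passed the filter on low counts.

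RNA sequencing was done on 3 samples of 4T1 cells exposed for 24 h to 10 µg/mL of IPA (isopimaric acid, a diterpene from conifer resin), and on 3 untreated samples of the same line. The labels name no solvent control. They do not say that replicates are separate cultures, so a p-value here reflects the spread among these samples alone, part or all of which may be technical. 4T1 is 1 line grown in culture, so the samples cannot stand for mammary epithelium in general. In bulk samples, fewer cells of a type and less RNA per cell cannot be told apart.

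The libraries held 3410411 to 43593509 counts with IPA and 20257983 to 58924711 counts when untreated, and IPA replicate 1 was the shallowest. Untreated replicate 2 stood apart from all others: its correlations with them across genes, in log2 CPM (counts of a gene scaled to a common library total), ran from 0.779 to 0.811, against 0.922 to 0.987 among the other 5 libraries. The main comparisons of IPA with untreated cells are therefore given with and without that library. The likeness between IDs uses all 6. The epithelial keratins were counted in untreated replicate 2 as well, with 69541 counts for the 5 together.

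In the GRCm38.p6 assembly Krt7, Krt8 and Krt18 lie on chromosome 15 and Krt19 and Krt14 on chromosome 11. Krt7 (ENSMUSG00000023039) spans chr15:101412403-101427806. Krt8 (ENSMUSG00000049382), at chr15:101996711-102004342, and Krt18 (ENSMUSG00000023043), at chr15:102028216-102032026, are neighbours 23.9 kb apart with no protein-coding gene between them. Krt19 (ENSMUSG00000020911), at chr11:100140810-100145926, and Krt14 (ENSMUSG00000045545), at chr11:100203162-100207510, are 57.2 kb apart. The coordinates are those of the RefSeq genes of the same symbols, all 6 of which were found.

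Treatment with IPA changed none of the 5 keratins detectably. Krt7 was on average higher with IPA, Krt8, Krt18, Krt19 and Krt14 were on average lower (Krt14 turned to 0.03 higher on the log2 scale with library totals, and Krt8 to 0.05 higher with library totals and untreated replicate 2 left out), and 0 of the 5 passed the edgeR test at an adjusted p under 0.05. Over all 24935 IDs tested in the 6 libraries 0% passed, and without untreated replicate 2 3.46% of 25592 IDs passed and again 0 of the 5 keratins. At an unadjusted p under 0.05, 6.26% of all IDs and 0 keratins passed over the 6 libraries, so the count of 0 among the keratins is read against a comparison that called no ID at all. DESeq2 and limma-voom passed 0 of the 5 as well, with or without untreated replicate 2. Of all IDs DESeq2 passed 0.513% and limma-voom 0% over the 6 libraries, and 5.08% and 6.52% without untreated replicate 2, shares at which 0 of 5 is no result about the keratins. The base of the DESeq2 shares includes IDs to which it gave no adjusted p, 6669 over the 6 libraries and 8436 without untreated replicate 2. The standard errors of the keratins were 0.20 to 0.41 on the log2 scale over the 6 libraries and 0.14 to 0.16 once untreated replicate 2 was left out.

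Levels below are CPM scaled by TMM, a normalization that trims the most divergent genes before it matches libraries. They are set side by side between samples and not between genes, since transcript lengths were not at hand. Its factor for untreated replicate 2 was 0.754, against 1.02 to 1.11 for the other 5 libraries, so the scaled levels of that library are higher than its plain CPM.

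**Figure D1:**
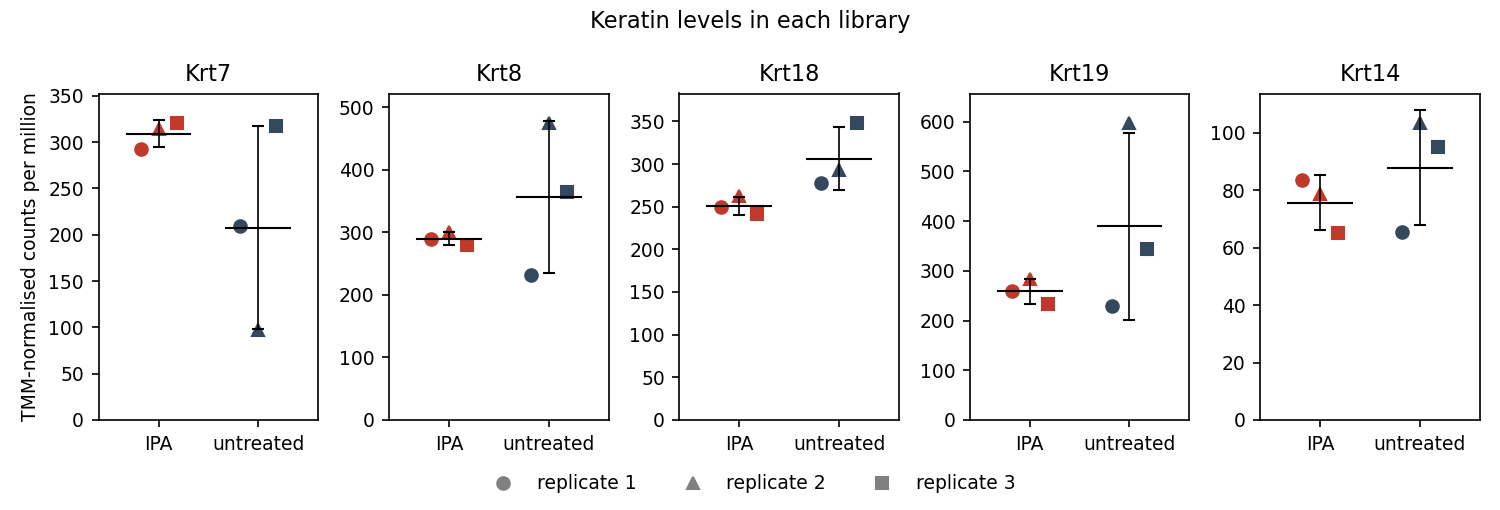
TMM-normalised CPM of each keratin (vertical axis, from 0) in the 3 IPA and the 3 untreated libraries, 1 point per library, with the group mean and SD as black lines. The 3 IPA libraries lie close together for Krt7, Krt8 and Krt18, and Krt18 is the keratin whose groups do not overlap on this scale.

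Krt18, the type I partner of Krt8, was the keratin whose IPA and untreated levels did not overlap. It stood at 249, 262 and 241 CPM in IPA replicates 1, 2 and 3, against 277, 293 and 348 CPM in untreated replicates 1, 2 and 3. Every IPA library was thus below every untreated one, a pattern that 10.7% of all tested IDs showed in the same direction, or 18.2% without untreated replicate 2. The group means were 251 ± 10.8 CPM with IPA and 306 ± 37 CPM untreated (SD, n = 3 each). The log2 fold change of Krt18 was -0.29 ± 0.20 (SE; edgeR adjusted p = 0.67), with a 95% interval from -0.76 to 0.19. Without untreated replicate 2 it was -0.34 ± 0.14 (edgeR adjusted p = 0.193), with an interval from -0.62 to -0.05, and its unadjusted edgeR p of 0.0221 was the smallest of the 5 in that comparison. In that comparison 16.8% of all IDs had an unadjusted p under 0.05.

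Krt8, the type II partner, stood at 289, 301 and 279 CPM in IPA replicates 1, 2 and 3, against 232, 474 and 364 CPM in untreated replicates 1, 2 and 3. The IPA libraries lay between the lowest and the middle untreated library. The log2 fold change of Krt8 was -0.30 ± 0.29 (SE; edgeR adjusted p = 0.737), and it was -0.06 ± 0.16 without untreated replicate 2 (edgeR adjusted p = 0.915). The 95% interval without that library, from -0.39 to 0.27, leaves out a 2-fold change in either direction.

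Krt7, a type II keratin of duct-lining epithelia, was the member with a higher mean under IPA. It stood at 293, 314 and 320 CPM in IPA replicates 1, 2 and 3, against 210, 96.8 and 317 CPM in untreated replicates 1, 2 and 3. Untreated replicate 3 was level with the IPA libraries, so the groups overlapped, and untreated replicate 2 was the lowest of all. The log2 fold change of Krt7 was 0.57 ± 0.41 (SE; edgeR adjusted p = 0.674), with a 95% interval from -0.39 to 1.54. It was 0.21 ± 0.15 without untreated replicate 2 (edgeR adjusted p = 0.557), with an interval from -0.11 to 0.53. The estimate was thus smaller, and its interval narrower, without that library.

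Krt19, the smallest keratin, which lacks a tail domain, stood at 259, 283 and 233 CPM in IPA replicates 1, 2 and 3, against 229, 597 and 343 CPM in untreated replicates 1, 2 and 3. The highest level was that of untreated replicate 2, and untreated replicate 1 was below all IPA libraries, so the groups overlapped. The log2 fold change of Krt19 was -0.59 ± 0.36 (SE; edgeR adjusted p = 0.657), with a 95% interval from -1.45 to 0.26. It was -0.17 ± 0.16 without untreated replicate 2 (edgeR adjusted p = 0.685), with an interval from -0.49 to 0.16.

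Krt14, the basal member, was counted in every library. It stood at 83.5, 78.6 and 64.9 CPM in IPA replicates 1, 2 and 3, against 65.4, 103 and 94.9 CPM in untreated replicates 1, 2 and 3. The lowest values of both groups were nearly equal, and the groups overlapped. The log2 fold change of Krt14 was -0.22 ± 0.24 (SE; edgeR adjusted p = 0.767), and it was -0.11 ± 0.16 without untreated replicate 2 (edgeR adjusted p = 0.816), with a 95% interval from -0.45 to 0.22.

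**Figure D2:**
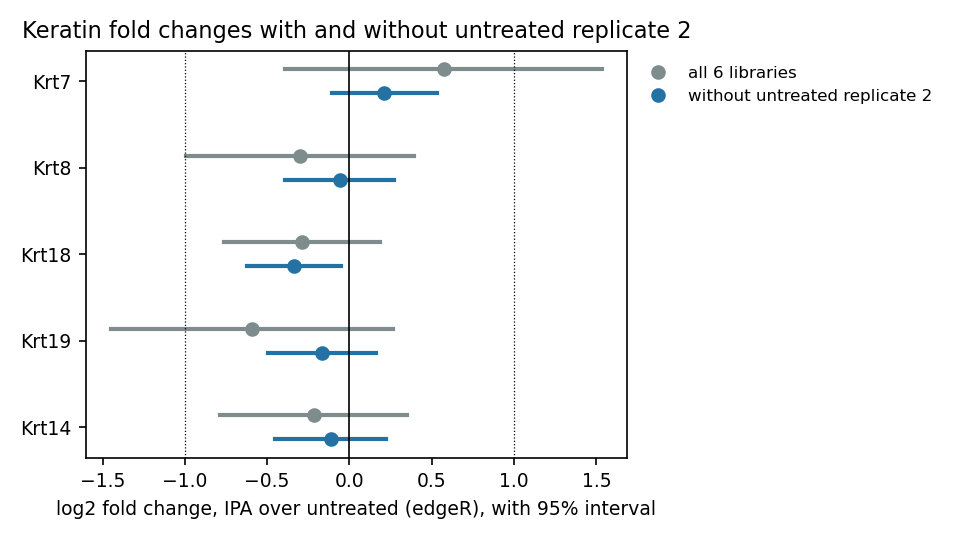
Log2 fold change of each keratin, IPA over untreated (horizontal axis), with its 95% interval from edgeR, over all 6 libraries (grey) and without untreated replicate 2 (blue); dotted lines mark a 2-fold change. The estimates without that library lie between -0.34 for Krt18 and 0.21 for Krt7, and their intervals stay inside the dotted lines.

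Set side by side, the 5 fold changes lay among those of all IDs. Over the 6 libraries Krt7 was at the 84.4th percentile of the log2 fold changes of all tested IDs, Krt14 at the 42.6th, Krt18 at the 39.2nd, Krt8 at the 38.5th and Krt19 at the 27.3rd. Without untreated replicate 2 the percentiles were 73.7 for Krt7, 48.3 for Krt8, 43 for Krt14, 38.2 for Krt19 and 25.6 for Krt18, so that Krt18 took the lowest place. The median over all tested IDs was -0.08 with TMM and 0.13 with library totals, and the keratin fold changes also moved up with library totals. Without untreated replicate 2 all 5 intervals excluded a 2-fold change, which over the 6 libraries Krt7 and Krt19 did not. The median standard error over all tested IDs also fell, from 0.55 over the 6 libraries to 0.29 without untreated replicate 2. The share of all IDs with such intervals was not computed, so this is no result about the keratins in particular.

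The composition of the keratin counts was compared within libraries, where no scaling between libraries is needed. A ratio of the counts of 2 keratins also holds their length ratio, which is the same in every library, so it can be followed across libraries but does not say which gene is higher. The ratios were computed for all 10 pairs after the counts had been seen, and none was tested. Of the 10 ratios 5 did not overlap between the groups over all 6 libraries, and 4 of these had Krt7 on top. Without untreated replicate 2 it was 6 of 10. The pairs share members and are not independent.

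The ratio of Krt7 to Krt8 was 1.01, 1.04 and 1.15 in IPA replicates 1, 2 and 3, against 0.905, 0.204 and 0.871 in untreated replicates 1, 2 and 3. The ratio was higher in every IPA library, also against untreated replicates 1 and 3 alone, where the mean difference was 0.26 on the log2 scale. Among all tested IDs, 7.8% had a ratio to Krt8 that was higher in every IPA library than in every untreated one, and 10.4% without untreated replicate 2.

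Against Krt18 the ratio of Krt7 was 1.18, 1.20 and 1.33 in IPA replicates 1, 2 and 3, against 0.756, 0.330 and 0.911 in untreated replicates 1, 2 and 3. These groups were also apart, with or without untreated replicate 2. But 21.3% of all tested IDs did the same against Krt18, or 33.1% without untreated replicate 2. Krt18 was itself lower in every IPA library with TMM, though not with library totals. Against Krt19 the ratio of Krt7 was 1.13, 1.11 and 1.37 in IPA replicates 1, 2 and 3, and 0.914, 0.162 and 0.924 in untreated replicates 1, 2 and 3, a separation that 12.3% of IDs showed against Krt19 (15.1% without untreated replicate 2). Against Krt14 the groups were apart as well, with 8.05% of IDs doing so (11.9% without untreated replicate 2).

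The ratio of the filament partners Krt8 and Krt18 was 1.16, 1.15 and 1.16 in IPA replicates 1, 2 and 3, against 0.836, 1.62 and 1.05 in untreated replicates 1, 2 and 3. The 3 IPA libraries, whose depths differ widely, agreed to an SD of 0.01 on the log2 scale, while the untreated ones had an SD of 0.48, or 0.23 without untreated replicate 2. This was the smallest IPA SD of the 10 pairs, which ran up to 0.25. IPA replicate 1 held 1096 counts of Krt8 and 946 of Krt18, so counting error there exceeds this SD, and a fixed ratio is not read from it. Single IDs at 50 CPM or more also varied less with IPA, with a median SD of 0.12 against 0.43 untreated, or 0.14 without untreated replicate 2. The untreated ratios lay on both sides of the IPA ratios, so the groups overlapped. Without untreated replicate 2 all IPA ratios were above the untreated ones, as were those of 33.1% of all tested IDs against Krt18.

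The ratio of Krt19 to Krt8 was the other one whose groups did not overlap. It was 0.898, 0.941 and 0.834 in IPA replicates 1, 2 and 3, against 0.990, 1.26 and 0.943 in untreated replicates 1, 2 and 3. IPA replicate 2 and untreated replicate 3 were almost equal, so the separation is narrow, and 4.48% of all tested IDs were lower against Krt8 in the same way (9.38% without untreated replicate 2).

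The basal share overlapped between the groups. Krt14 made up 7.12%, 6.34% and 5.70% of the counts of the 5 keratins in IPA replicates 1, 2 and 3, against 6.45%, 6.60% and 6.47% in untreated replicates 1, 2 and 3. The exact 95% binomial interval of IPA replicate 1, the shallowest library, ran from 6.38% to 7.91%. Such intervals cover counting error only. The IPA shares lay on both sides of the untreated ones and were spread more widely. The mean difference was -0.12 percentage points, and -0.075 without untreated replicate 2. It was -0.49 without IPA replicate 1 and 0.22 without IPA replicate 3, so its size and sign rest on single libraries. Untreated replicate 2 lay inside the range of the other libraries in this share, but outside it in the ratios of Krt14 to single keratins. For Krt8 and Krt18 it was only just outside. Krt14 to Krt19 was 0.173 there, against 0.277 to 0.322 in the other 5 libraries, and Krt14 to Krt8 was 0.218, against 0.232 to 0.289. Krt14 to Krt18 was 0.352, against 0.236 to 0.335, and Krt7 to Krt14 was 0.936, against 3.21 to 4.93.

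**Figure D3:**
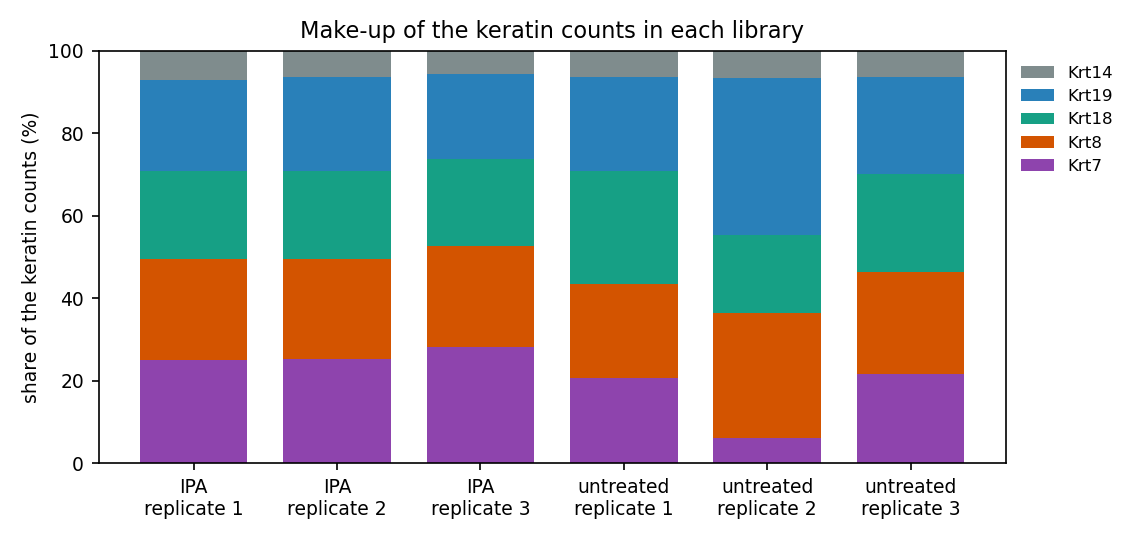
Share of the counts of the 5 keratins (percent, vertical axis) that each keratin took in the 3 IPA and the 3 untreated libraries, as stacked bars. The Krt7 share is 6.18% in untreated replicate 2 and between 20.7% and 28.1% in the other 5 libraries, while the Krt14 share lies between 5.70% and 7.12% in all 6.

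Untreated replicate 2 was then set against untreated replicates 1 and 3, a description of single libraries with no test. Its keratins did not move as a block. Krt7 was lower by a log2 difference of -1.41 from the mean of untreated replicates 1 and 3, or 0.376 of their level. Krt19 was 1.09 higher and Krt8 0.71 higher on the same scale, Krt14 was 0.39 higher (-0.04 with library totals) and Krt18 differed by -0.08. In raw counts Krt7 had 4301 in untreated replicate 2, against 4323 in untreated replicate 1 and 17136 in untreated replicate 3, although untreated replicate 2 was the deepest library of the 6.

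Such differences were common among all IDs in that library. Past 2-fold with TMM, 1 keratin (Krt7) was lower and 1 (Krt19) was higher. Among all tested IDs, 29.8% were lower and 24.8% higher past 2-fold, and among the 4688 IDs at 50 CPM or more in untreated replicates 1 and 3, 22% were lower and 13.1% higher. Among those IDs at 50 CPM or more, Krt7 lay at the 11.9th percentile of the difference, Krt18 at the 55.8th, Krt14 at the 73.6th, Krt8 at the 81.3rd and Krt19 at the 88.2nd. With library totals in place of TMM, Krt7 differed by -1.85, Krt18 by -0.52, Krt19 by 0.65 and Krt8 by 0.27. The size of each difference thus depends on the scaling, and Krt19 was past 2-fold with TMM only.

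The make-up of the keratin counts, which needs no scaling, also set this library apart. Krt7 took 6.18% of the keratin counts in untreated replicate 2 (exact 95% binomial interval 6.01% to 6.37%), against 20.7% and 21.6% in untreated replicates 1 and 3. Krt19 took 38.1% there, against 22.6% and 23.4%, and Krt8 took 30.3%, against 22.9% and 24.8%. Krt18 took 18.7%, against 27.4% and 23.7%. The neighbours Krt8 and Krt18 thus differed in this library, and so did Krt7 and Krt8, both type II. The 5 keratins together held 0.118% of all counts of untreated replicate 2, between the 0.103% of untreated replicate 1 and the 0.15% of untreated replicate 3. In the IPA libraries their part of all counts was 0.12% to 0.134%.

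**Figure D4:**
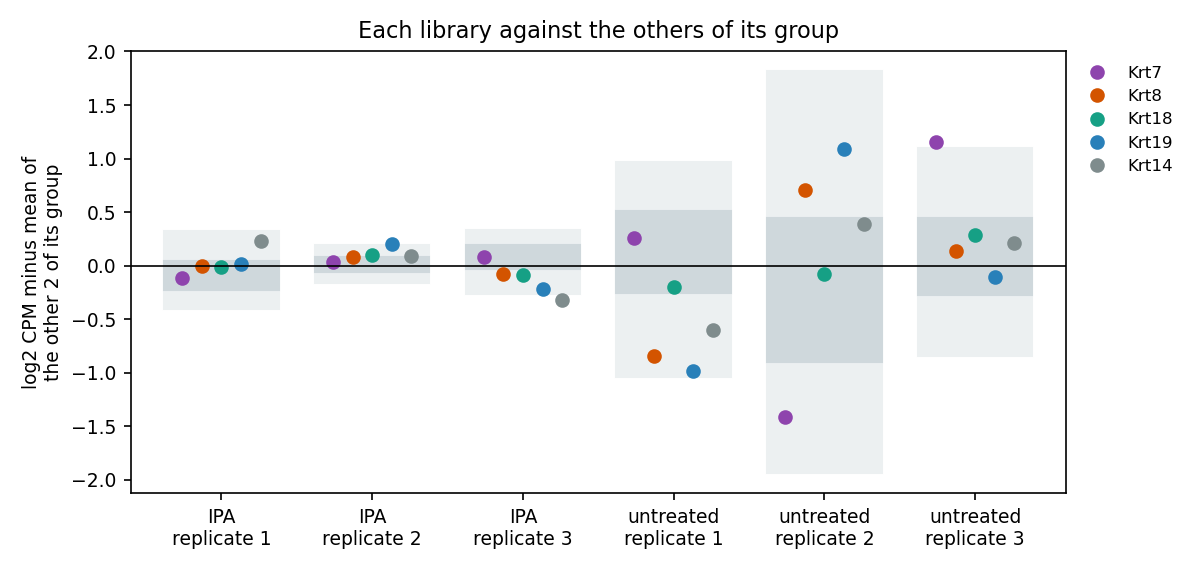
Difference in log2 CPM (vertical axis) of each keratin in each library from the mean of the other 2 libraries of its group. Shaded bands hold the middle 50% (dark) and the middle 90% (light) of the 4688 IDs at 50 CPM or more; in untreated replicate 2 the keratins spread from -1.41 for Krt7 to 1.09 for Krt19, while in the IPA libraries they lie between -0.32 and 0.23.

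Untreated replicates 1 and 3, which lay close to each other across genes, differed in the keratins in 1 direction. All 5 were higher in untreated replicate 3 than in untreated replicate 1, by 0.65 for Krt8, 0.60 for Krt7, 0.58 for Krt19, 0.54 for Krt14 and 0.33 for Krt18 on the log2 scale. The median absolute difference between these libraries was 0.20 over the 4688 IDs at 50 CPM or more. By the absolute difference Krt8 lay at the 97.8th percentile of those IDs, Krt7 at the 96.3rd, Krt19 at the 95.9th, Krt14 at the 94.5th and Krt18 at the 74.9th. This spread is between samples of 1 group and was larger than the fold changes with IPA that the same libraries gave for Krt7, Krt8, Krt19 and Krt14 without untreated replicate 2.

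Within the IPA group the keratins varied less. The SD of log2 CPM over the 3 IPA libraries was 0.05 for Krt8, 0.06 for Krt18, 0.07 for Krt7, 0.14 for Krt19 and 0.19 for Krt14, against a median of 0.12 over the IDs at 50 CPM or more. In untreated libraries it was 0.52 for Krt8, 0.17 for Krt18, 0.87 for Krt7, 0.69 for Krt19 and 0.35 for Krt14, against a median of 0.43. Over untreated replicates 1 and 3 alone it was 0.46 for Krt8, 0.23 for Krt18, 0.42 for Krt7, 0.41 for Krt19 and 0.38 for Krt14, against a median of 0.14, so untreated replicate 2 carried a large part of the spread of Krt7 and Krt19. IPA replicate 1 had from 317 counts for Krt14 to 1112 for Krt7, and its keratin levels stayed within 0.23 on the log2 scale of the mean of IPA replicates 2 and 3.

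Likeness was measured as the Pearson correlation of log2 CPM over the 6 libraries with each of 11147 other IDs at a mean of at least 10 CPM, which all share the same libraries and depths. Krt7 had 2308 IDs, or 20.7%, above a correlation of 0.9, Krt19 had 1314, Krt8 had 374, Krt14 had 51 and Krt18 had 19. The closest ID was ENSMUSG00000002228 for Krt7 (0.9996), ENSMUSG00000000154 for Krt8 (0.995), ENSMUSG00000045027 for Krt18 (0.964) and ENSMUSG00000029634 for Krt19 (0.997), none of which the sources used here pair with a name. Among the keratins, Krt19 was the 47th closest ID to Krt8 and Krt8 the 40th closest to Krt14, while the filament partner Krt18 was the 3682nd closest to Krt8. With TMM, untreated replicate 2 had the lowest level of Krt7 and the highest of Krt8, Krt19 and Krt14 among the 6 libraries. With library totals, Krt8 and Krt14 were highest in untreated replicate 3. The part of untreated replicate 2 in these rankings was not tested.

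Reads of Krt8 are uncertain to the extent that they were shared with copies, since the RefSeq table lists the pseudogene Krt8-ps on chromosome 7, and Krt14 has close relatives beside it, such as Krt16. How multiply mapped reads and strand were treated is not given in the sources used here.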

How the data were processed

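The authors deposited 1 table of counts by Ensembl ID for 6 libraries. Its values are whole numbers and were taken as unnormalised counts. GRCm38 and mm10 are the builds in the submitters' processing notes, with aligner and counter not given in the sources used here. Over all IDs, the smallest row total was 7. Groups and replicate numbers come from the sample titles, to which the columns were matched by letter and number. The 6 keratins, the gene lists and the alternatives were chosen with earlier results of these data known.

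Counts were compared with the edgeR 4.0.16 quasi-likelihood F-test (robust fit, TMM, filterByExpr) in R 4.3.3, with Benjamini-Hochberg adjustment over all tested IDs, and checked on simulated data. Standard errors are the log2 fold change divided by the square root of F. Log2 CPM used a prior count of 2. In the shallowest library 3 counts correspond to 0.88 CPM.

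Alternatives used DESeq2 1.42.0, limma 3.58.1, other scalings and filters, a replicate block and left-out libraries. The plan was to name the keratins, called members of 17 lists fixed by symbol, and the IDs most like each keratin. The 17 lists (other keratins, desmosomes, mammary layers, filaments, regulators, other cell types) were not analysed, since 0 of 49997 genes of the reference table carry an Ensembl ID. Levels per length are not given.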

Additional observations from a re-analysis of the deposited data

How the results depend on the processing

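Across 21 alternatives for each of the 5 keratins, none of the 105 adjusted p-values passed; the smallest was 0.0815, for Krt18 with limma-voom without untreated replicate 2, and 102 kept the direction. Krt8 turned to 0.00577 with limma-voom with sample quality weights and to 0.0454 with library totals without untreated replicate 2, and Krt14 to 0.0268 with library totals; the cause was not tested. With 1 library left out, the log2 fold change ran from 0.21 to 1.02 for Krt7 (without untreated replicates 2 and 3), -0.46 to -0.06 for Krt8 (without untreated replicates 1 and 2), -0.34 to -0.17 for Krt18 (without untreated replicates 2 and 3), -0.78 to -0.17 for Krt19 (without untreated replicates 1 and 2) and -0.32 to -0.11 for Krt14 (without untreated replicate 1 and IPA replicate 3).

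Over all IDs, 0 were higher and 0 lower. DESeq2 called 45 higher and 83 lower, limma-voom with sample quality weights 492 and 755, and 1 ID was higher with library totals and 1 without a filter; limma-voom without weights called 0. Leaving out 1 library gave 0 to 322 higher and 0 to 564 lower, all above 0 without untreated replicate 2. Without that library and IPA replicate 1 there were 719 and 763; without that library, DESeq2 gave 645 and 656, limma-voom 660 and 1009, library totals 691 and 327, RLE factors 364 and 481, and upper-quartile factors 309 and 581.

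For untreated replicate 2 against replicates 1 and 3, library totals gave -1.85 for Krt7, -0.52 for Krt18, 0.65 for Krt19, 0.27 for Krt8 and -0.0443 for Krt14. Set against untreated replicate 1 alone or 3 alone, a choice made after the data were seen, Krt18 was at 0.08 and -0.25, and the other 4 kept their direction. The mean Krt8 to Krt18 ratio difference, 0.04 on the log2 scale, was -0.17 without untreated replicate 1 and 0.31 without untreated replicate 2, and the Krt7 to Krt8 ratio difference, 0.97, was 0.26 and 1.34 without untreated replicates 2 and 1. The Krt5 to Krt14 ratio was not run.

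With the replicate block the log2 fold changes were 0.72 for Krt7, -0.24 for Krt8, -0.28 for Krt18, -0.49 for Krt19 and -0.20 for Krt14, with 0 IDs called. Samples of the same number had deviations from their group means that correlated at -0.0771, 0.0183 and 0.161. Untreated replicate 2, which stood apart, enters the untreated means, so these values cannot show whether the numbers pair the samples.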
